A study of Rattus norvegicus with 8 samples.

Results

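The contrast described here is ischemia against normoxia in rat neonatal ventricular cardiomyocytes that received only the solvent DMSO. Its members are all 7694 genes that the authors listed for this pair of groups, of 9025 genes listed in the 5 tables of the series, and the account below is centred on genes outside the well-known hypoxia (HIF), antioxidant (NRF2) and cell division programmes. The ischemia DMSO group held 2 libraries of cells kept for 24 h in an ischemic condition with 1% oxygen, and the normoxia DMSO group held 2 libraries of cells kept in normoxia. All cells came from heart ventricles of Sprague Dawley rats aged 2 to 3 days, and the labels name no genetic change. The normoxic oxygen level and the make-up of the medium were not given, so low oxygen cannot be told apart from the other parts of the ischemic condition. Whether replicate libraries go back to different cell isolations is not given by the labels, so p-values measure only the spread between these libraries, which may be technical. The remaining 4 libraries of the series, with 10 µM eugenol in each oxygen condition, entered only where they are named.

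Heart muscle cells make most of their ATP by oxidative metabolism, and lack of oxygen moves them towards glycolysis and slows costly work such as growth, division and protein secretion. Besides HIF, several oxygen-dependent or nutrient-dependent systems respond: the dioxygenases that demethylate histones and DNA use oxygen as a substrate, the kinase GCN2 and the factor ATF4 respond to amino acid shortage, FoxO factors are released when insulin signalling falls, and TFEB and TFE3 drive lysosome genes when the growth kinase mTORC1 is inactive. Myocardin-related factors and SRF keep up actin and contractile genes in response to cell tension, and YAP responds to cell shape and contact.

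A gene could be listed only if its unadjusted p in the authors' own test was under 0.05, so a gene that is not listed was either not expressed enough or did not pass that limit. Levels are read counts per 1000000 reads (RPM) of the total behind the authors' FPKM values, which was 17744920 and 15937751 reads in the ischemia DMSO libraries and 16547561 and 16083936 reads in the normoxia DMSO libraries. Values given for ischemia and normoxia below are those of libraries 1 and 2 of the DMSO groups, unless eugenol is named. A gene was called when its adjusted p in edgeR's quasi-likelihood test was under 0.05. Of 16406 genes tested by the authors, 3689 (22.5%) were called higher in ischemia and 3838 (23.4%) lower. The authors' deposited table held 3231 (19.7%) and 3482 (21.2%) at the same limit on its own adjusted p, and 6674 genes were called the same way by both. The edgeR test saw only genes already selected for a low p, so its estimate of the spread may be too small, and nearly all listed genes passed. At least 2-fold changes numbered 1298 higher (7.91%) and 1632 lower (9.95%). The median log2 fold change of all listed genes was -0.27, and it was -0.10 with DESeq2 size factors, so each value below could move up by about 0.17. Only 190 of the called genes stood on the HIF, NRF2 and cell cycle lists used here, which leaves 7337 called genes for the functions below. A gene absent from these lists may still be a target of HIF or NRF2 or a cell cycle gene, which was not tested. Shares of a list below are of all its members, listed or not. Members that were not among the 16406 tested genes lower such a share beside the 22.5% and 23.4%, and their number is not known.

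The labelled cell type was checked against 20 cardiomyocyte markers, of which 17 were listed. Their summed level lay between 44047 and 45519 RPM in ischemia DMSO and between 77292 and 77468 RPM in normoxia DMSO, with 16 called lower and 1, the slow myosin heavy chain Myh7, higher (a call lost with either ischemia DMSO library left out). Markers of other heart cells were present in all 4 libraries. The listed fibroblast markers (12 of 15) summed to 11022 to 11344 RPM in ischemia DMSO and 15858 to 16113 RPM in normoxia DMSO, and those of smooth muscle and pericytes (9 of 10) to 1765 to 1887 RPM in ischemia and 4767 to 5862 RPM in normoxia. Of the fibroblast markers 8 were called lower and 4 higher (53.3% and 26.7% of the 15, against 23.4% and 22.5% of all tested genes). Their lower count was 4 with either ischemia DMSO library left out and 4 with DESeq2 size factors. Of the smooth muscle and pericyte markers 8 were called lower and 1 higher (80% and 10% of the 10). Endothelial markers (6 of 13) summed to 93.2 to 102 RPM in ischemia DMSO and 219.9 to 245 RPM in normoxia DMSO, and macrophage markers (10 of 14) to 45.7 to 46.8 RPM in ischemia and 104 to 115 RPM in normoxia. Each sum holds listed markers only, and a marker was listed only with a p under 0.05 in this same contrast. Some difference between the groups was thus built in, and markers that did not pass or were not expressed enough are missing. In such mixed cultures fewer cells of a type and less RNA per cell cannot be told apart.

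**Figure D1:**
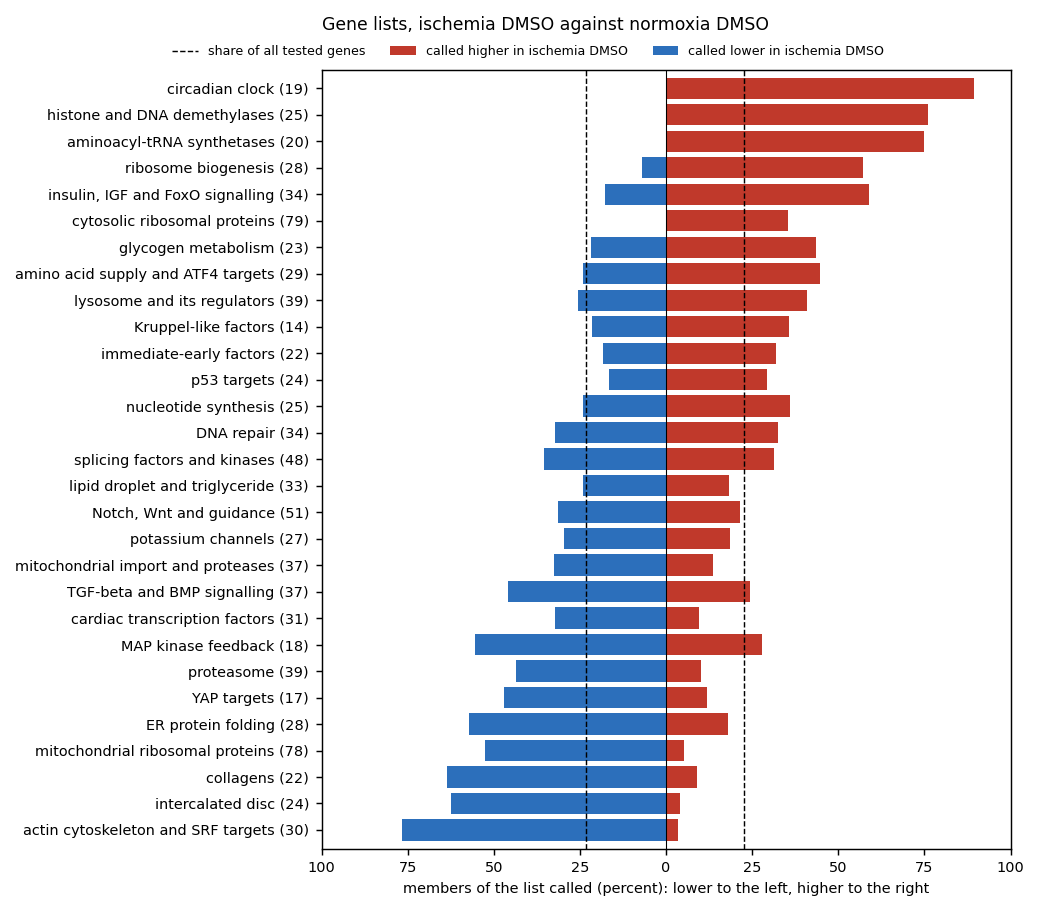
Share of each gene list (x axis, percent of the list's members) called lower (bars to the left) and called higher (bars to the right) in ischemia DMSO against normoxia DMSO, for 29 lists outside the HIF, NRF2 and cell cycle sets (y axis, with the number of members). Dashed lines mark the 22.5% of all tested genes called higher and the 23.4% called lower; the clock, tRNA synthetase and demethylase lists have no bar to the left, and the ribosomal protein list of the cytosol has none either.

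Genes that charge tRNAs and build ribosomes rose together in ischemia. Of 20 cytosolic aminoacyl-tRNA synthetases, the enzymes that load each tRNA with its amino acid, 15 were called higher and 0 lower, against a background of 22.5% and 23.4%, and 5 were not listed. Their median log2 fold change was 0.71. Sars, which charges serine tRNA, had 418 and 391 RPM in ischemia DMSO against 176 and 183 RPM in normoxia DMSO (log2 fold change 1.17 ± 0.09 SE, edgeR adjusted p = 9.3e-06). Eprs, the double synthetase for glutamate and proline, had 723 and 748 RPM in ischemia against 327 and 361 RPM in normoxia, and Aars, for alanine, 466 and 469.7 RPM in ischemia against 210.0 and 231 RPM in normoxia. In each of these genes both ischemia libraries lay above both normoxia libraries. Groups that did not overlap were found in 7523 of all 7527 called genes. Among the called synthetases the smallest rise was that of Wars, for tryptophan, at 0.28.

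Ribosome biogenesis factors, which make and fold ribosomal RNA in the nucleolus, had 16 of 28 members called higher and 2 lower (median 0.58). These were 57.1% and 7.14% of the list, against 22.5% and 23.4% of all tested genes. Polr1b, a large subunit of RNA polymerase I, had 29.2 and 31.6 RPM in ischemia DMSO and 12.8 and 13.1 RPM in normoxia DMSO. Pes1, part of the complex that matures the large ribosomal subunit, had 107 and 112 RPM in ischemia against 50.9 and 55 RPM in normoxia, and Wdr43, a factor of the small subunit processome, 126 and 117 RPM in ischemia against 56.5 and 59.1 RPM in normoxia. The number called lower was 1 with either ischemia DMSO library left out and without normoxia DMSO library 1. Of the lower members, Bysl changed by -0.61, and Nhp2 rested on 1 normoxia library, with 0.451 and 0.753 RPM in ischemia DMSO and 38.1 and 0.435 RPM in normoxia DMSO. The cytosolic ribosomal proteins themselves moved little, apart from Rpl7a (1.21). Of 79, 28 were called higher (35.4%, against 22.5% of all tested genes) and 0 lower. A further 15 were listed without a call and 36 were not listed. The authors' deposited table called 33 higher. The count called higher was 4 without ischemia DMSO library 1 and 7 without library 2, and 43 with DESeq2 size factors. Rpl3, a core protein of the large subunit, had 1330.1 and 1243 RPM in ischemia DMSO and 959 and 907 RPM in normoxia DMSO, a log2 fold change of 0.46, and the median of the listed members was 0.28. These genes have many near-identical pseudogene copies that can share reads, so single members are uncertain.

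The elongation factors of translation were among the largest gains in reads. Eef1a1, which brings charged tRNA to the ribosome, had 7203 and 6442 RPM in ischemia DMSO against 4927 and 4706 RPM in normoxia DMSO, and Eef2, which moves the ribosome along the message, 4677 and 4509.7 RPM in ischemia against 3611 and 3366 RPM in normoxia.

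Amino acid supply and ATF4 target genes had 13 of 29 called higher and 7 lower (44.8% and 24.1%, against 22.5% and 23.4% of all tested genes). Their median was 0.67, and the share called lower was near that of all tested genes. The lower count fell to 5 without ischemia DMSO library 1 and 4 without library 2. Gdf15, a stress-secreted hormone of the TGF-beta family, had 100.1 and 91.5 RPM in ischemia DMSO against 14.2 and 18.4 RPM in normoxia DMSO (log2 fold change 2.56 ± 0.13 SE, edgeR adjusted p = 1.6e-06). Slc3a2, the heavy chain shared by several amino acid exchangers, had 726 and 661 RPM in ischemia against 176 and 185 RPM in normoxia, and Trib3, a pseudokinase induced by ATF4, 165 and 130.2 RPM in ischemia against 39.3 and 39 RPM in normoxia. The transcription factor Cebpb, a partner of ATF4, had 233 and 204 RPM in ischemia against 59.6 and 48.9 RPM in normoxia. Against this direction, Chac1, which breaks down glutathione, had 10.8 and 6.65 RPM in ischemia DMSO and 21.3 and 21.4 RPM in normoxia DMSO, and Psph, the last enzyme of serine synthesis, 13.5 and 11.5 RPM in ischemia against 29.97 and 29.5 RPM in normoxia. The groups did not overlap in any of these 6 genes, which held for 7523 of all 7527 called genes.

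Genes of mitochondrial translation split by genome. Of 78 mitochondrial ribosomal proteins, which are encoded in the nucleus, 41 were called lower and 4 higher (median -0.65). These were 52.6% and 5.13% of the list, against 23.4% and 22.5% of all tested genes. Mrpl49 of the large subunit had 4.06 and 3.01 RPM in ischemia DMSO and 14.3 and 12.5 RPM in normoxia DMSO, Mrpl35 of the same subunit 18.3 and 20.8 RPM in ischemia against 45.6 and 46.1 RPM in normoxia, and Mrps12 of the small subunit 20.1 and 16.5 RPM in ischemia against 42.7 and 41 RPM in normoxia. The 4 higher ones were Mrps18b, Mrpl43, Mrpl15 and Mrps35, with log2 fold changes of 0.28 to 0.50, and Mrps18b was not called in the authors' deposited table. Their number was 1 with either ischemia DMSO library left out. Mrpl36, among the lower members, had groups that overlapped.

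The ribosomal RNAs encoded in the mitochondrial genome went the other way. The longer one, at MT:1094-2664 in the deposited coordinates, had 5435 and 5249 RPM in ischemia DMSO against 1181 and 1205 RPM in normoxia DMSO (log2 fold change 2.16 ± 0.08 SE, edgeR adjusted p = 8.1e-07). The shorter one, at MT:68-1025, had 2156 and 2070.4 RPM in ischemia against 806 and 691 RPM in normoxia (log2 fold change 1.50). Messenger RNAs of the same genome did not follow. Cytochrome b (Mt-cytb) had 3887 and 4113 RPM in ischemia DMSO and 6941 and 7728 RPM in normoxia DMSO, and cytochrome oxidase subunit 2 (Mt-co2) 2974 and 3159 RPM in ischemia against 4846 and 5544 RPM in normoxia. Of the 10 listed protein-coding genes of the mitochondrial genome 8 were called lower and 0 higher, Mt-cox3 and Mt-nd6 being listed without a call (in the authors' deposited table Mt-cox3 was called lower, and Mt-atp8, Mt-nd4 and Mt-nd6 were not called), while the 5 listed rRNA and tRNA genes were all called higher. The 3 tRNA genes among them are short, 66 to 72 bases, and lie in 1 stretch of the minus strand, MT:5081-5321. Their levels were low, from 2.74 to 29.9 RPM over the 4 DMSO libraries.

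**Figure D2:**
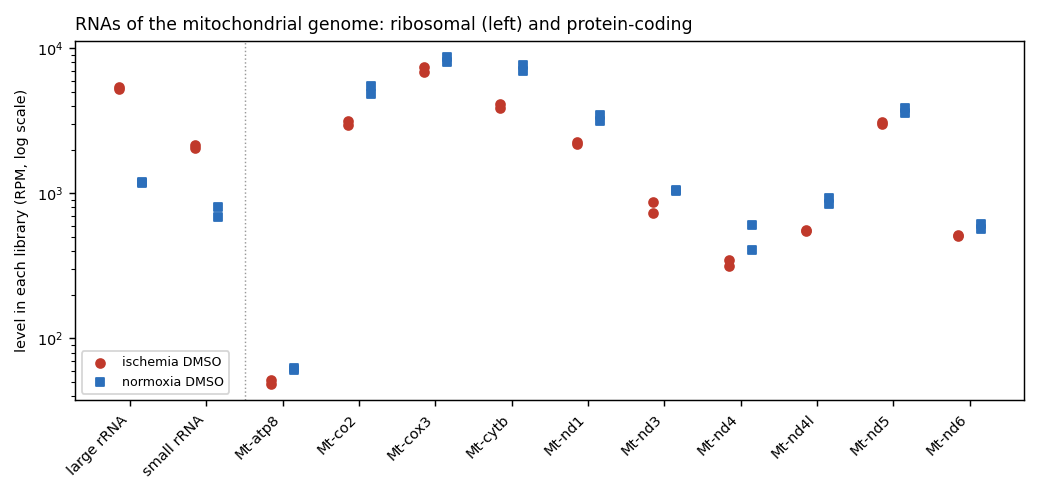
Level in each library (y axis, RPM on a log scale) of the mitochondrial genome's ribosomal RNAs and of 10 of its protein-coding genes (x axis), ischemia DMSO at the left and normoxia DMSO at the right of each gene. Both ribosomal RNAs lie higher in ischemia, the longer at 5435 and 5249 RPM and the shorter at 2156 and 2070.4 RPM, and the protein-coding genes lie level or lower.

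Import and quality control of mitochondrial proteins had 12 of 37 members called lower and 5 higher (32.4% and 13.5%, against 23.4% and 22.5% of all tested genes). The higher count was 3 with either ischemia DMSO library left out. The higher ones include Lonp1, the main protease of the matrix, with 496 and 483 RPM in ischemia DMSO against 214 and 216 RPM in normoxia DMSO, Clpx, the unfoldase of a further matrix protease, with 147 and 147 RPM in ischemia against 72.6 and 64 RPM in normoxia, and Hspa9, the matrix Hsp70 (0.79). The lower ones were mostly parts of the import machinery, such as Timm22, of the inner membrane, with 22.1 and 18 RPM in ischemia against 47.9 and 39.5 RPM in normoxia.

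Genes that fold secreted proteins in the endoplasmic reticulum were mostly lower by small amounts, with 16 of 28 called lower and 5 higher (median -0.42). These were 57.1% and 17.9% of the list, against 23.4% and 22.5% of all tested genes. The lower count was 9 without ischemia DMSO library 1 and 11 without library 2, and 10 with DESeq2 size factors. The higher count was 3 with either ischemia DMSO library left out. Dnajb11, a co-chaperone of the lumenal Hsp70 BiP, had 60.2 and 55.3 RPM in ischemia DMSO and 129 and 146 RPM in normoxia DMSO, and Ssr1, part of the translocon through which proteins enter, 100.1 and 91.6 RPM in ischemia against 213 and 228 RPM in normoxia. Pdia6, a disulphide isomerase, changed by -0.97. The higher ones, Herpud1, Dnajb9, Sel1l, P4hb and Xbp1, include parts of the pathway that removes misfolded proteins. Dnajb9 had 108 and 102 RPM in ischemia against 42.8 and 36.4 RPM in normoxia, and Herpud1 249 and 239 RPM in ischemia against 122 and 104 RPM in normoxia. The main chaperones Hspa5 (BiP) and Hsp90b1 were not listed.

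The endoplasmic reticulum stress element, CCAAT and CCACG with 9 bases between them, is the site through which ATF6 acts on such genes. It was looked for on both strands of RefSeq promoters (GRCr8, 250 bases before to 50 after the start). It stood in 18 of 19005 protein-coding promoters and in 8 of the 24 promoters found for this list. Among the holders, Calr (-0.33) and Creld2 (-0.64) were called lower, Xbp1 (0.29) was called higher, and Hspa5, Hsp90b1, Canx, Dnajc3 and Ero1b were not listed. The calls of Calr and Xbp1 were both lost with either ischemia DMSO library left out, and that of Calr also with DESeq2 size factors (log2 fold change -0.16, edgeR adjusted p = 0.201). The stretches of the called holders are shown with the element in capitals, since they carry the sequence that was searched for. Each is on the gene's strand, where Calr and Creld2 hold the element in reverse complement.
Calr, chr19:40213120-40213168, plus strand: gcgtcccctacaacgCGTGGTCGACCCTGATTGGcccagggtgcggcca
Creld2, chr7:121789224-121789272, plus strand: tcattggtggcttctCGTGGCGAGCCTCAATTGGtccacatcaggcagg
Xbp1, chr14:84604543-84604591, plus strand: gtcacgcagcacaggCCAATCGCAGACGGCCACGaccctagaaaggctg

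Proteasome genes also fell by small amounts, with 17 of 39 subunits called lower and 4 higher (median -0.55). These were 43.6% and 10.3% of the list, against 23.4% and 22.5% of all tested genes. Psmb3, of the proteolytic core, had 42 and 40.8 RPM in ischemia DMSO and 86.8 and 84.9 RPM in normoxia DMSO, and Psmd1, of the regulatory cap, 127 and 129.9 RPM in ischemia against 220.1 and 229 RPM in normoxia. The members called higher were Psmd5, Psmf1, Psmc6 and Psmd11. Their number was 1 with either ischemia DMSO library left out, and 2 in the authors' deposited table. Of these genes, Psmd5, an assembly chaperone, and Psmf1, an inhibitor, are not parts of the finished particle.

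The lysosome list had 16 of 39 members called higher and 10 lower (41.0% and 25.6%, against 22.5% and 23.4% of all tested genes). Its median was 0.44, with regulators among its larger rises, and the share called lower was near that of all tested genes. The lower count was 5 without ischemia DMSO library 1 and 5 without library 2, and 5 with DESeq2 size factors. Fnip1 and Fnip2, partners of folliculin in nutrient sensing at the lysosome, had the largest rises of the list, Fnip1 with 160.0 and 149.7 RPM in ischemia DMSO against 42.2 and 38.4 RPM in normoxia DMSO (log2 fold change 1.94 ± 0.09 SE, edgeR adjusted p = 1.4e-06) and Fnip2 with 53.3 and 52.7 RPM in ischemia against 16.1 and 16.7 RPM in normoxia. Flcn, folliculin itself, rose by 0.66, the GTPases Rragc and Rragd by 0.83 and 1.01, and the factors Tfe3 and Tfeb by 0.81 and 1.24 on the log2 scale. Npc1, which exports cholesterol from lysosomes, had 67.1 and 71.7 RPM in ischemia against 28.7 and 28.1 RPM in normoxia. The lower members include the hydrolase Ctsh, cathepsin H, with 31.7 and 44.6 RPM in ischemia DMSO and 79.9 and 66.8 RPM in normoxia DMSO.

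Circadian clock genes rose together. Of 19 genes 17 were called higher (89.5%, against 22.5% of all tested genes) and 0 lower, and the rest were not listed (median 0.90). The activating and the repressing arm of the loop rose together: the activators Bmal1 (Arntl in the deposited table) and Npas2 by 0.69 and 0.67, and the repressors Per2, Per3 and Cry1 by 1.41, 1.17 and 0.90 on the log2 scale; Npas2 was not called in the authors' deposited table. The largest rises were in output genes and in the REV-ERB repressor. Ciart, a repressor of CLOCK and BMAL1, had 28.7 and 26.4 RPM in ischemia DMSO against 4.35 and 5.53 RPM in normoxia DMSO (log2 fold change 2.48 ± 0.16 SE, edgeR adjusted p = 4.6e-06). Nr1d1, which encodes REV-ERB alpha, had 136 and 152 RPM in ischemia against 31.2 and 34.7 RPM in normoxia, and Nr1d2, its paralog, 226 and 219 RPM in ischemia against 86.7 and 68.1 RPM in normoxia. Dbp, a transcription factor directly driven by the clock, had 171 and 167 RPM in ischemia against 54.9 and 47.5 RPM in normoxia. All cells were treated for 24 h and 1 time point was sampled, so a shift in phase and a change in level cannot be told apart.

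**Figure D3:**
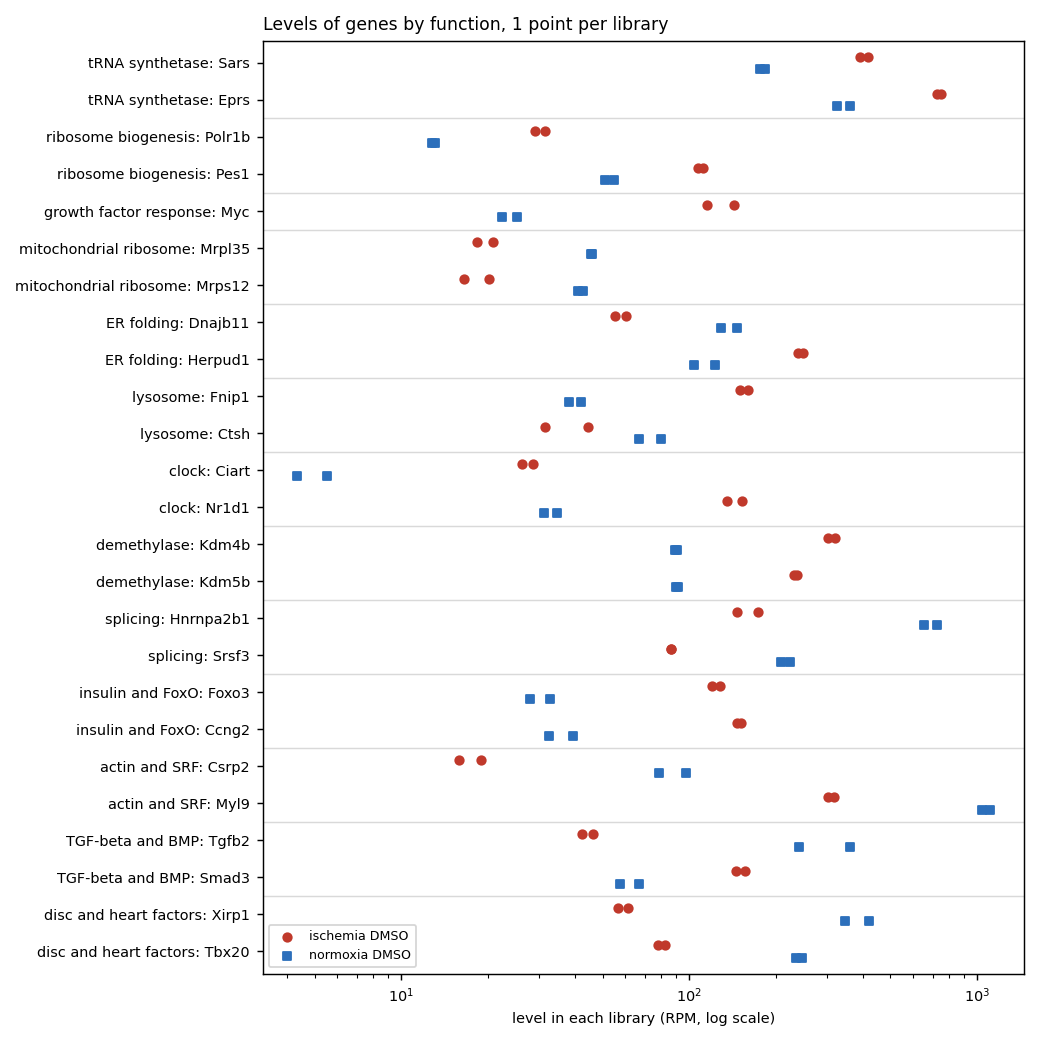
Level of 25 genes in each library (x axis, RPM on a log scale), by function, ischemia DMSO above normoxia DMSO within each gene; each point is 1 library. All are called genes, and 7523 of all 7527 called genes had groups that did not overlap. The spread within a group varies, and for Ctsh it is wide beside the gap between groups. Ciart lies at 28.7 and 26.4 RPM in ischemia DMSO and at 4.35 and 5.53 RPM in normoxia DMSO. Tgfb2 lies at 46.2 and 42.4 RPM in ischemia DMSO and at 240.2 and 361 RPM in normoxia DMSO.

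The sequence CACGTG, an E-box, is bound by CLOCK with BMAL1, by TFEB and TFE3 and by MYC. It stood in the promoters of 12% of genes called higher (Wilson 95% interval 10.8 to 13.3%, 2791 promoters), of 7.44% of genes called lower (6.53 to 8.47%, 2823 promoters) and of 7.27% of all 19005 protein-coding promoters. The shorter core of the hypoxia response element, ACGTG, which every E-box also holds, stood in 29.1%, 23.1% and 20.4% in the same order, and without an E-box in 17.1%, 15.6% and 13.2%. The sequence CCAAT went the other way, with 34.1% of promoters of genes called higher, 40.2% of genes called lower and 38.4% of all. TGACGTCA (the cyclic AMP response element) stood in 2.51%, 3.29% and 2.22%, TGANTCA (AP-1) in 5.23%, 4.64% and 6.65%, and TATAAA in 6.49%, 7.33% and 13.1%. Both strands were searched for each. Promoters of called genes were richer in G and C (median 62.7% for higher and 61.3% for lower) than all promoters (55.3%), and its part in these shares was not tested.

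E-boxes stood in 9 of 25 ribosome biogenesis promoters found, in 5 of 17 tRNA synthetase promoters, in 0 of 17 collagen promoters, in 2 of 14 clock promoters and in 8 of 29 lysosome promoters. Of further lists called mostly lower, endoplasmic reticulum folding held them in 5 of 24, the proteasome in 5 of 35 and mitochondrial import in 5 of 34. The actin and SRF list held them in 2 of 25 and the intercalated disc in 0 of 16. The demethylases, all higher where listed, held them in 2 of 23. The stretches below show the E-boxes, in capitals and on the gene's strand, of all called clock and lysosome genes that hold one and of Pes1 and Nop2 from ribosome biogenesis, from RefSeq (GRCr8). Glb1, a lysosomal galactosidase, holds an E-box and was called lower (-0.81), and so does Bysl of ribosome biogenesis, not shown, which was also called lower (-0.61). Of the other ribosome biogenesis holders, not shown, Dkc1, Ltv1 and Mybbp1a were called higher, and Fbl, Utp20 and Pno1 were not listed.
Ciart, chr2:186112247-186112354, minus strand: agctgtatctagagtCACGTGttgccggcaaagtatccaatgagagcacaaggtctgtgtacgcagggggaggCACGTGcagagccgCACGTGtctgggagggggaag
Tef, chr7:115206614-115206649, plus strand: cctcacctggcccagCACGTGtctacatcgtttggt
Fnip1, chr10:39068364-39068399, plus strand: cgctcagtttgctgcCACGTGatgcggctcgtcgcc
Gaa, chr10:105028273-105028308, plus strand: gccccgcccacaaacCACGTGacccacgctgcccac
Cln3, chr1:190597947-190598010, minus strand: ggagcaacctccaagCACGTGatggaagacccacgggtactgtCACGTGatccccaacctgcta
Mcoln1, chr12:6358221-6358282, plus strand: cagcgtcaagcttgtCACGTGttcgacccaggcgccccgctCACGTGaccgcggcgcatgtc
Glb1, chr8:122963603-122963638, plus strand: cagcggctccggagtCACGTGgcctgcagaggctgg
Pes1, chr14:83074281-83074316, plus strand: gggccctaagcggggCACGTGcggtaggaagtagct
Nop2, chr4:159618989-159619015, plus strand: actcttccccaagtgCACGTGgagcgg
Ciart holds 3 E-boxes, and Cln3 and Mcoln1 hold 2 each. Nop2, an rRNA methyltransferase, rose by 0.98, Tef, an output factor of the clock, rose by 1.29, Gaa, the lysosomal glucosidase that digests glycogen, by 1.25, Cln3, a lysosomal membrane protein, by 1.13, and Mcoln1, the lysosomal calcium channel, by 0.81 on the log2 scale.

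**Figure D4:**
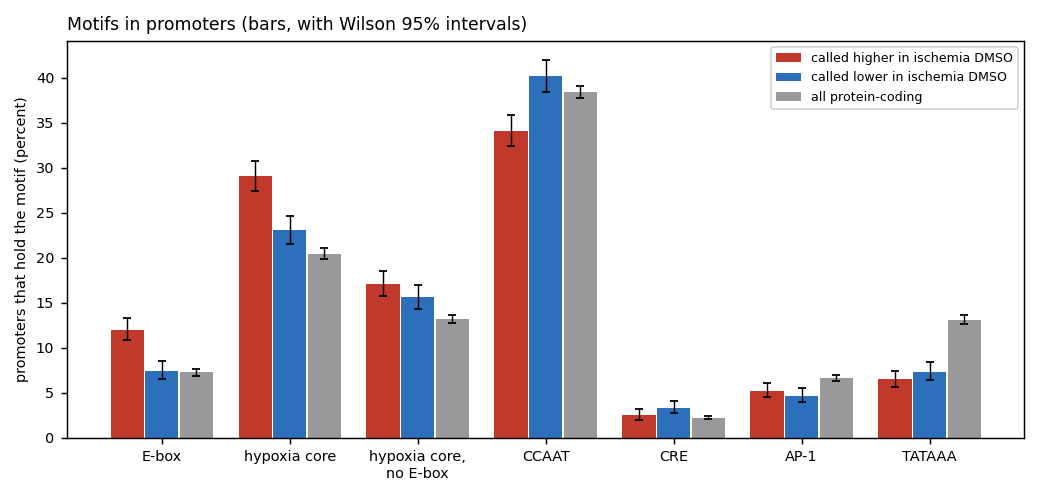
Share of promoters (y axis, percent, with Wilson 95% intervals) that hold each motif (x axis) among genes called higher in ischemia DMSO, genes called lower and all protein-coding genes. The E-box stands in 12%, 7.44% and 7.27% of them, and CCAAT in 34.1%, 40.2% and 38.4%.

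All listed demethylases of histones and DNA rose. Of 25 genes, with Kdm3a left out because it stood on the HIF list used here, 19 were called higher, 0 lower and 6 were not listed (median 0.69). The share called higher was 76%, against 22.5% of all tested genes. Whether HIF drives other members, such as Kdm4b, Kdm4c and Kdm5b, was not tested. Kdm4b, which removes methyl groups from lysine 9 of histone H3, had 303 and 320.5 RPM in ischemia DMSO against 89.5 and 90.5 RPM in normoxia DMSO (log2 fold change 1.79 ± 0.09 SE, edgeR adjusted p = 1.4e-06). Kdm5b, a demethylase of lysine 4, had 232 and 237 RPM in ischemia against 91.4 and 90.2 RPM in normoxia, Kdm4c 54.5 and 51.8 RPM in ischemia against 21.8 and 21.8 RPM in normoxia, and Kdm6b, which acts on lysine 27, 242 and 247 RPM in ischemia against 111 and 114 RPM in normoxia. Kdm1a, which uses FAD in place of iron and oxoglutarate, rose by 0.50. The DNA demethylases Tet1, Tet2 and Tet3 rose by 0.71, 0.44 and 0.33 on the log2 scale, Tet3 without a call in the authors' deposited table.

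Splicing factors were split, with 17 of 48 called lower and 15 higher (35.4% and 31.25%, against 23.4% and 22.5% of all tested genes). Their median was -0.38, and with DESeq2 size factors the balance turned to 13 lower and 15 higher. The lower count was 12 without ischemia DMSO library 1 and 11 without library 2, and the higher count was 10 without ischemia DMSO library 1 and 6 without library 2. Hnrnpa2b1, a nuclear RNA-binding protein, had 147 and 173 RPM in ischemia DMSO and 651 and 724 RPM in normoxia DMSO, a log2 fold change of -2.10 ± 0.11 SE (edgeR adjusted p = 1.7e-06). The SR proteins Srsf3, with 86.8 and 86.6 RPM in ischemia against 209 and 224 RPM in normoxia, and Srsf1, with 108 and 131 RPM in ischemia against 247 and 285 RPM in normoxia, were also lower, whereas Srsf4 was higher, with 115 and 117 RPM in ischemia against 60.8 and 62.2 RPM in normoxia, and so was Rbm39, an SR-related splicing protein, with 6.71 and 10.8 RPM in ischemia against 3.08 and 1.31 RPM in normoxia. The kinases of SR proteins Clk1, Clk3, Clk4 and Srpk1 were each called higher, by 0.44 to 0.76 on the log2 scale, as was Rbm20, the splicing regulator of titin (0.38).

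Immediate-early and growth-factor response genes did not move as a block. Of 22 immediate-early factors 7 were called higher and 4 lower (31.8% and 18.2%, against 22.5% and 23.4% of all tested genes). Maff, a small MAF protein, had 113 and 104 RPM in ischemia DMSO against 18.3 and 20.7 RPM in normoxia DMSO, and Fosl2, a FOS-related subunit of AP-1, 25.3 and 25.3 RPM in ischemia against 8.22 and 8.89 RPM in normoxia. Fos itself was called lower, with 13.5 and 5.58 RPM in ischemia against 23 and 22 RPM in normoxia, and Srf had 121 and 111 RPM in ischemia against 201 and 213 RPM in normoxia, and Fos was not called in the authors' deposited table. Myc, the growth-promoting factor that binds E-boxes with MAX, was also higher, with 143 and 115 RPM in ischemia against 22.4 and 25.2 RPM in normoxia (log2 fold change 2.44 ± 0.13 SE, edgeR adjusted p = 1.8e-06). Feedback inhibitors of MAP kinases were mostly lower, 10 of 18 against 5 higher (median -0.59), with a higher count that was 1 without ischemia DMSO library 1 and 5 without library 2. Of the feedback list 55.6% were called lower and 27.8% higher, the latter near the 22.5% of all tested genes. The phosphatase Dusp1 had 41.9 and 34.6 RPM in ischemia DMSO and 109 and 120.2 RPM in normoxia DMSO. Spry1, an inhibitor of growth factor receptor signalling, had 27.6 and 25.8 RPM in ischemia against 62.4 and 66 RPM in normoxia. The phosphatase Dusp2 was higher, with 6.42 and 4.45 RPM in ischemia against 0.906 and 1.18 RPM in normoxia. Of 14 Kruppel-like factors 5 were called higher and 3 lower (35.7% and 21.4%, against 22.5% and 23.4% of all tested genes). The higher count was 3 without ischemia DMSO library 1 and 4 without library 2. The number called lower was 1 with either ischemia DMSO library left out, without normoxia DMSO library 2 and with DESeq2 size factors alike. Among them were Klf2, a flow-responsive endothelial factor, at 7.10 and 8.03 RPM in ischemia against 31.5 and 31.1 RPM in normoxia, and Klf15, a regulator of metabolism in heart muscle, at 44.1 and 44.9 RPM in ischemia against 23.6 and 19.8 RPM in normoxia.

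Insulin, IGF and FoxO genes rose for the most part, with 20 of 34 called higher and 6 lower (median 0.87). These were 58.8% and 17.6% of the list, against 22.5% and 23.4% of all tested genes. Foxo3 had 119.6 and 128 RPM in ischemia DMSO against 32.8 and 28 RPM in normoxia DMSO (log2 fold change 2.03 ± 0.10 SE, edgeR adjusted p = 1.7e-06), and Foxo1 rose by 1.78. Further rises, named after their values were seen, were in Ccng2, an atypical cyclin, which had 151 and 146 RPM in ischemia against 39.4 and 32.7 RPM in normoxia, in the insulin receptor Insr (1.42) and in Fbxo32, the atrogin-1 ubiquitin ligase of muscle wasting (1.38). Among binding proteins of IGF, Igfbp3 was higher, with 374 and 354 RPM in ischemia against 80.5 and 76.1 RPM in normoxia, and Igfbp7 lower, with 220.1 and 194 RPM in ischemia DMSO and 544 and 519 RPM in normoxia DMSO. The ligand Igf1 had 13.2 and 11.4 RPM in ischemia against 30.03 and 25.7 RPM in normoxia, and the kinase Akt1 changed by -1.07.

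Among fuel storage genes, the glycogen list had more members called higher than lower and the lipid droplet list was called about as often as all genes. Of 23 glycogen genes, with the HIF targets Gys1, Gbe1 and Ppp1r3c left out, 10 were called higher and 5 lower (43.5% and 21.7%). Pygl, the phosphorylase named for liver, had 186 and 195 RPM in ischemia DMSO against 32.7 and 27.7 RPM in normoxia DMSO (log2 fold change 2.66 ± 0.11 SE, edgeR adjusted p = 8.5e-07), while the muscle form Pygm changed by 0.53 and the brain form Pygb by -0.33. Ugp2, which makes the sugar donor of glycogen synthesis, had 389 and 362 RPM in ischemia against 114 and 98.1 RPM in normoxia. Ppp1r3d, a glycogen-targeting phosphatase subunit, had 33 and 36.7 RPM in ischemia against 132 and 124 RPM in normoxia. Of 33 lipid droplet genes 6 were called higher and 8 lower (18.2% and 24.2%, near the 22.5% and 23.4% of all tested genes), and 19 were not listed. Their lower count was 4 with DESeq2 size factors, 5 without ischemia DMSO library 1 and 4 without library 2. Plin4, a droplet coat protein, had 26 and 31.6 RPM in ischemia against 6.77 and 5.35 RPM in normoxia, and Lpin1, a phosphatidate phosphatase, 78.6 and 83.1 RPM in ischemia against 31.1 and 24.1 RPM in normoxia. Acsl3, a fatty acid activating enzyme of droplets, had 31.7 and 33.3 RPM in ischemia DMSO and 120.1 and 131 RPM in normoxia DMSO.

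DNA repair genes moved in both directions. Of 34 genes 11 were called higher and 11 lower (32.4% each, against 22.5% and 23.4% of all tested genes). The authors' deposited table called 6 higher and 10 lower. The higher count was 5 without ischemia DMSO library 1 and 3 without library 2. The number called lower was 7 with either ischemia DMSO library left out. The lower ones include Rad54l, Bard1, Brca1, Fanca and Fancd2 of homologous recombination and crosslink repair, such as Bard1 with 7.50 and 9.41 RPM in ischemia DMSO and 20.2 and 24.8 RPM in normoxia DMSO. The higher ones include the mismatch repair genes Msh3 (0.50) and Msh6 (0.84), Xrcc1 (0.97), a scaffold of single-strand break repair, and Xpc (0.88) and Ddb2 (0.75), which detect ultraviolet damage. Of these, Msh3 and Ddb2 were not called in the authors' deposited table. Many repair genes are also active in dividing cells, and of 130 cell cycle genes 109 were called lower and 3 higher; their part in the split was not tested. Of 24 p53 targets 7 were called higher and 4 lower (29.2% and 16.7%, near the 22.5% and 23.4% of all tested genes), and 13 were not listed. Their lower count was 0 without ischemia DMSO library 2 and 1 with DESeq2 size factors. Cdkn1a, the p21 inhibitor of cell division, had 217 and 202 RPM in ischemia against 102 and 104 RPM in normoxia, Mdm2, the ligase of p53, 184 and 166 RPM in ischemia against 80.2 and 79.1 RPM in normoxia, and Aen, a nuclease, 87.2 and 98.1 RPM in ischemia against 35.1 and 40.3 RPM in normoxia. Of 25 nucleotide synthesis genes 9 were called higher and 6 lower (36% and 24%, the latter near the 23.4% of all tested genes). Ak4, a mitochondrial adenylate kinase, had 80.1 and 76.2 RPM in ischemia against 21.9 and 15.5 RPM in normoxia, and Ctps1, which makes CTP, 69.2 and 69.2 RPM in ischemia DMSO and 164 and 174 RPM in normoxia DMSO.

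Actin cytoskeleton and SRF target genes fell, with 23 of 30 called lower and 1, Actg1, higher, a call lost with either ischemia DMSO library left out and without normoxia DMSO library 1 (median -0.94). Of the actin and SRF list 76.7% were called lower and 3.33% higher, against 23.4% and 22.5% of all tested genes. Csrp2, a LIM protein of smooth muscle, had 15.9 and 18.9 RPM in ischemia DMSO and 97.6 and 78.7 RPM in normoxia DMSO. Myl9, a smooth muscle myosin light chain, had 319 and 303 RPM in ischemia against 1106 and 1040.1 RPM in normoxia, and Fhl1, a LIM protein of muscle, 641 and 554 RPM in ischemia against 1784 and 2234 RPM in normoxia. Cytoplasmic beta-actin, Actb, changed by -0.74 and gamma-actin, Actg1, by 0.36, with 598 and 563 RPM in ischemia against 399 and 508 RPM in normoxia; actins are similar enough in sequence to share reads. YAP targets and partners had 8 of 17 called lower and 2, Lats1 and Wwtr1, higher, and the lower count was 7 without ischemia DMSO library 1 and 5 without library 2. Of the YAP list 47.1% were called lower and 11.8% higher, against 23.4% and 22.5% of all tested genes. Ctgf (CCN2), a matrix signal protein, had 1042 and 825 RPM in ischemia DMSO and 1412 and 2042 RPM in normoxia DMSO. Amotl2 had 164 and 162 RPM in ischemia against 302 and 341 RPM in normoxia. The sum of listed smooth muscle markers moved the same way, with the limit given above. The part of smooth muscle cells in these falls was not tested.

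Of 37 TGF-beta and BMP genes 17 were called lower and 9 higher (45.9% and 24.3%, against 23.4% and 22.5% of all tested genes). The share called higher was thus near that of all tested genes. Tgfb2 had 46.2 and 42.4 RPM in ischemia DMSO and 240.2 and 361 RPM in normoxia DMSO (log2 fold change -2.76 ± 0.18 SE, edgeR adjusted p = 4.5e-06). Bmp7 had 17.5 and 15.9 RPM in ischemia against 77.2 and 77.3 RPM in normoxia, and the BMP antagonist Grem1 4.45 and 4.45 RPM in ischemia against 44.1 and 42.3 RPM in normoxia. The BMP-responsive genes Id1, Id3, Id2 and Smad6 were called lower, by -1.99, -1.89, -0.75 and -1.26 on the log2 scale. The receptors Tgfbr1, Tgfbr2, Tgfbr3 and Bmpr2 were higher, by 0.39, 0.37, 1.22 and 0.71 on the log2 scale, and Bmpr1a was lower (-0.36). Tgfbr1 was not called in the authors' deposited table or without ischemia DMSO library 1 or normoxia DMSO library 2. Tgfbr2 lost its call without ischemia DMSO library 2, and Bmpr1a lost it there and with DESeq2 size factors. Also higher were Smad3, which carries the signal to the nucleus, with 156 and 145 RPM in ischemia against 66.8 and 57.7 RPM in normoxia, and the ligands Bmp6, with 107 and 94.2 RPM in ischemia against 38.7 and 39.8 RPM in normoxia, and Bmp2 (1.13).

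Collagen genes had 14 of 22 called lower and 2, Col11a1 and Col12a1, higher (median -0.78). These were 63.6% and 9.09% of the list, against 23.4% and 22.5% of all tested genes. The authors' deposited table called 1 higher, Col12a1. The edgeR count was 0 with either ischemia DMSO library left out and 1 without normoxia DMSO library 1. Col8a1, a network-forming collagen of vessels, had 76.1 and 71.9 RPM in ischemia DMSO and 229 and 266 RPM in normoxia DMSO, and Col6a3, of microfibrils, 77.8 and 86.7 RPM in ischemia against 195 and 262 RPM in normoxia. Fibroblasts are the main source of collagens, and of the 12 listed fibroblast markers 8 were called lower, among them Thy1 (-1.93), and 4 higher, among them Dcn, Fbln1 and Vim (1.21, 1.65 and 0.92). The part of fibroblast number in these values was not tested.

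Genes of the contacts between cardiomyocytes fell. Of the intercalated disc list 62.5% were called lower and 4.17% higher, against 23.4% and 22.5% of all tested genes. Of 24 intercalated disc genes 15 were called lower and 1, desmoplakin (Dsp), higher, a call lost without ischemia DMSO library 2 (median -0.81). The lower count was 9 without ischemia DMSO library 1 and 12 without library 2. Xirp1, an actin-binding disc protein, had 56.5 and 61.1 RPM in ischemia DMSO and 349 and 422 RPM in normoxia DMSO (log2 fold change -2.71 ± 0.12 SE, edgeR adjusted p = 9.1e-07). Gja5, the atrial and conduction connexin 40, had 2.76 and 2.45 RPM in ischemia against 14.9 and 13.5 RPM in normoxia, and the ventricular connexin 43 gene Gja1 was not listed. The sum of listed cardiomyocyte markers was lower too, with the limit given above. The part of cardiomyocyte number in these falls was not tested. Of 27 potassium channel genes 8 were called lower and 5 higher (29.6% and 18.5%, near the 23.4% and 22.5% of all tested genes), and 14 were not listed. Their higher count was 2 without ischemia DMSO library 1 and 3 without library 2. Kcnk2, the stretch-sensitive channel TREK-1, had 3.49 and 1.95 RPM in ischemia DMSO and 12.9 and 12.3 RPM in normoxia DMSO. Kcnj5, a subunit of the acetylcholine-gated channel, had 23.4 and 18.4 RPM in ischemia against 41.8 and 51 RPM in normoxia, whereas its partner Kcnj3 was higher, with 13.8 and 14.3 RPM in ischemia against 9.19 and 6.78 RPM in normoxia. Abcc8, a sulphonylurea receptor of ATP-sensitive channels, had 16.3 and 18.9 RPM in ischemia against 47.4 and 38.6 RPM in normoxia, and the pore subunit Kcnj11 changed by -0.42.

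Cardiac transcription factors had 10 of 31 called lower and 3 higher (32.3% and 9.68%, against 23.4% and 22.5% of all tested genes). Not listed were 18, among them Gata4 and Tbx5. Tbx20, needed for chamber muscle, had 77.9 and 82.1 RPM in ischemia DMSO and 247 and 235 RPM in normoxia DMSO, Smyd1, a muscle methyltransferase, 45.4 and 55.4 RPM in ischemia against 171 and 158 RPM in normoxia, and Irx4, a ventricular factor, 28 and 29.3 RPM in ischemia against 92.3 and 66.7 RPM in normoxia. Tbx3, a factor of the conduction system, was higher, with 9.58 and 11.3 RPM in ischemia against 3.26 and 2.24 RPM in normoxia, and so was Mef2d, with 188 and 188 RPM in ischemia against 108 and 107 RPM in normoxia, while its relative Mef2c changed by -1.02. Among 51 Notch, Wnt and guidance genes 16 were called lower and 11 higher (31.4% and 21.6%, against 23.4% and 22.5% of all tested genes). Their higher count was 8 without ischemia DMSO library 1 and 7 without library 2. The Wnt antagonist Sfrp1 had 59.3 and 59.5 RPM in ischemia against 326 and 318 RPM in normoxia, and the receptor Fzd4 22.5 and 22.6 RPM in ischemia against 68.1 and 70.4 RPM in normoxia, while the ligands Wnt4, Wnt5a and Wnt9a were higher, by 1.09, 1.27 and 1.72, with no call of Wnt9a in the authors' deposited table. The guidance signal Sema3c had 84.6 and 67.7 RPM in ischemia against 233 and 286 RPM in normoxia, and Sema6a 18.7 and 19.5 RPM in ischemia against 6.35 and 5.41 RPM in normoxia.

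The largest changes outside the HIF, NRF2 and cell cycle lists concerned genes of varied function. Some of them, such as Vim, Col1a1 and Nppa, are already counted among the markers or lists above. Cyp1a1, a cytochrome P450 known as a target of the aryl hydrocarbon receptor, had 12.3 and 8.72 RPM in ischemia DMSO against 0.242 and 0.249 RPM in normoxia DMSO, and the metallothionein gene Mt2A, whose product binds zinc and copper, 255 and 239 RPM in ischemia against 14.8 and 12.7 RPM in normoxia. Pla2g7, a phospholipase that breaks down oxidised lipids, had 138 and 165 RPM in ischemia DMSO against 8.94 and 6.09 RPM in normoxia DMSO (log2 fold change 4.33 ± 0.17 SE, edgeR adjusted p = 8.1e-07). Rasd2, a small GTPase best known from the striatum, had 22.7 and 23.5 RPM in ischemia against 2.60 and 1.68 RPM in normoxia, and Nxph4, a secreted ligand of neurexins, 9.92 and 10.4 RPM in ischemia against 0.967 and 0.684 RPM in normoxia. Fam46c, a poly(A) polymerase, had 8.17 and 5.58 RPM in ischemia against 0.363 and 0.435 RPM in normoxia. At the low end, Asb4, which carries ankyrin repeats and a SOCS box, had 2.93 and 2.89 RPM in ischemia against 77.8 and 57.6 RPM in normoxia, Islr, a secreted leucine-rich protein of stromal cells, 2.31 and 3.58 RPM in ischemia against 38.4 and 35.4 RPM in normoxia, and Mfsd2a, a transporter of lysophospholipids, 0.225 and 0.376 RPM in ischemia against 4.59 and 7.21 RPM in normoxia. The fall of Epb4.1l1 rested on 1 normoxia library, with 0.451 and 0.502 RPM in ischemia DMSO and 12.1 and 1.24 RPM in normoxia DMSO. By number of reads, large gains besides the elongation factors were in the filament genes Vim, with 2750.4 and 2743 RPM in ischemia against 1389.9 and 1508 RPM in normoxia, and Des, desmin, with 2421 and 2415 RPM in ischemia against 1387 and 1509 RPM in normoxia, in the cytosolic chaperone Hsp90ab1, with 2236 and 2074 RPM in ischemia against 1393 and 1374 RPM in normoxia, and in Bsg, basigin, a partner of lactate transporters, with 1957 and 1842 RPM in ischemia against 1318 and 1118 RPM in normoxia. Besides Mt-cytb and genes of the contractile apparatus, the largest losses were in the collagen gene Col1a1, with 4894 and 4814 RPM in ischemia DMSO and 8017 and 8618 RPM in normoxia DMSO, in Nppa, which encodes atrial natriuretic peptide, with 12296 and 11545 RPM in ischemia against 21338 and 20737 RPM in normoxia, and in Ankrd1, a stretch-responsive cofactor, with 1020.0 and 868 RPM in ischemia against 4697 and 5763 RPM in normoxia.

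Called genes also differed in length, position and domain. Among listed protein-coding genes, the 1821 shortest (up to 1651 bases in the deposited gene length) had 667 called higher and 1102 lower, and the 1821 longest (from 3873 bases) 982 and 794. The median length was 2748 bases for genes called higher and 2305 bases for genes called lower. On the X chromosome 83 genes were called higher and 161 lower, so 34% of its calls were higher, and among the other chromosomes with at least 20 listed genes this share lay between 44% (chromosome 2) and 56.5% (chromosome 19). By the domain family given in the deposited table, and for families of at least 25 listed genes, the highest shares of rises were in genes with a DEAD helicase domain, with 22 called higher and 5 lower, with a BTB domain, often adaptors of ubiquitin ligases, with 28 and 10, and with a KRAB domain, most of them repressors, with 19 and 8. The lowest shares were in collagen domain genes, with 2 called higher and 26 lower, in calponin homology genes (CH), many of which bind actin, with 8 and 24, and in ubiquitin-conjugating enzymes (UQ_con), with 8 and 19. Beside these, 3689 of all called genes were higher and 3838 lower, and 49% of called protein-coding genes were higher. All these counts are without a test, the families named are the extremes, and families share members with the lists above.

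The same oxygen contrast was measured in separate libraries that had received eugenol, ischemia eugenol 1 and 2 against normoxia eugenol 1 and 2. Of the 7527 genes called here, 6356 (84.4%) were also called there in the same direction, 9 in the opposite direction, 56 were listed without a call and 1106 were not listed. The background there was 22.4% called higher and 23.8% lower. By function, 15 of 17 called clock genes, 14 of 15 tRNA synthetases and 17 of 19 demethylases were called higher there too, shares near the 84.4% of all called genes. Ciart had 26.7 and 23.5 RPM in ischemia eugenol against 4.59 and 6.81 RPM in normoxia eugenol. The longer mitochondrial ribosomal RNA had 5467 and 4121 RPM in ischemia eugenol against 1319.7 and 1429.6 RPM in normoxia eugenol. Myh7, Nhp2 and Aldh18a1 were called in opposite directions and were chosen here after their values were seen. Myh7 was called higher without eugenol, with 5748 and 6434 RPM in ischemia DMSO against 4155 and 5034 RPM in normoxia DMSO, and lower with it, with 5388 and 5117 RPM in ischemia eugenol and 5958 and 6183 RPM in normoxia eugenol; the difference between the effects did not pass (edgeR interaction over 6515 genes, adjusted p = 0.525). Nhp2 had 22.6 and 0.419 RPM in ischemia eugenol and 0.711 and 0.477 RPM in normoxia eugenol, again with 1 high library, and Aldh18a1, an enzyme of proline synthesis, had 0.451 and 0.376 RPM in ischemia DMSO, 4.77 and 0.870 RPM in normoxia DMSO, 5.56 and 6.53 RPM in ischemia eugenol and 0.841 and 3.95 RPM in normoxia eugenol. Of the largest rises and falls, Ogn, Tma7, Epb4.1l1, Clip3 and Hiat1 were not listed in the eugenol pair.

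**Figure D5:**
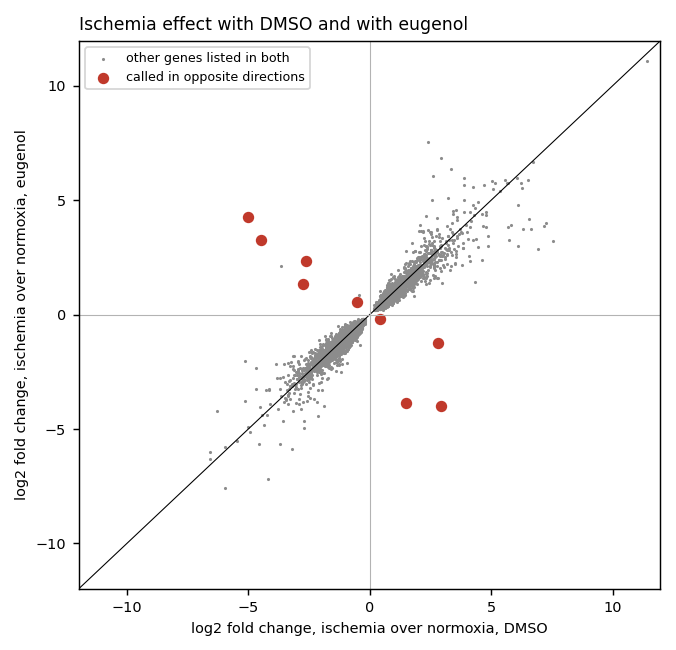
Log2 fold change of ischemia over normoxia with eugenol (y axis) against that with DMSO only (x axis) for the 6515 genes listed in both pairs, which share no library; 1 point per gene, with the 9 genes called in opposite directions as filled circles. Most points lie along the diagonal, and the marked genes lie in the corners where the signs differ.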

How the data were processed

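RNA from 8 libraries of rat neonatal ventricular cardiomyocytes was sequenced, and the 2 ischemia DMSO and 2 normoxia DMSO libraries were compared. The authors deposited read counts, FPKM values, log2 fold changes and p-values per gene, per the file headers. Tools listed by the submitters' processing notes are edgeR, DESeq2, StringTie 1.3.3b and HISAT2, with no role stated; the genome build and annotation are not given in the sources used here, and coordinates are as deposited. The deposited counts were scaled by the total behind the deposited FPKM values (count divided by FPKM and gene length). Every listed gene has an unadjusted deposited p-value under 0.05.

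The deposited counts of all listed genes were fitted with edgeR 4.0.16 (glmQLFit and glmQLFTest), after a test on simulated data. P-values were adjusted by the Benjamini-Hochberg method over the 16406 genes of the authors' adjustment. The standard error (SE) is the absolute log2 fold change divided by the square root of F. DESeq2 1.42.0, other scalings, filters, thresholds, a replicate block and leaving out each library were the alternatives. Motif shares have Wilson 95% intervals, which cover counting error only, in RefSeq promoters (GRCr8). The 44 other per-sample columns of the deposited tables were not used.

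The genes and lists were chosen with earlier results of these data known. Genes named are from the 12 largest rises and falls, the 8 largest gains and losses in RPM, up to 4 members per list with the largest change and 2 against its majority, all with non-overlapping libraries for the first 2 kinds and at least 5 RPM in the higher group; holders of the endoplasmic reticulum stress element were also named. Other list members were named after their values were seen. Some list members are counted in their lists but not reported here by name.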

Additional observations from a re-analysis of the deposited data

Results flagged for a closer look

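Aldh18a1, Alkbh6 and Myh7 were called in opposite directions by ischemia with DMSO and with eugenol, and every library lay on the opposite side. The same held for Qk, LOC100911615, LOC103694902 and an unnamed transcript, whose interactions did not pass and which are not described further. The difference between the effects (eugenol minus DMSO, log2) was 4.09 for Aldh18a1, an enzyme of proline synthesis, with an edgeR interaction adjusted p of 0.780, so it did not pass. For Myh7 it was -0.62 (edgeR interaction adjusted p = 0.525), which did not pass either. For Alkbh6, a member of the AlkB family of dioxygenases, it was -6.92 (edgeR interaction adjusted p = 0.0076). Alkbh6 had 1.07 and 2.32 RPM in ischemia DMSO against 0.181 and 0.249 RPM in normoxia DMSO, and 0.250 and 0.299 RPM in ischemia eugenol against 5.88 and 3.13 RPM in normoxia eugenol. It was the 1 gene of 6515 tested whose interaction passed an adjusted p of 0.05, and 205 had an unadjusted p under 0.05. These 6515 genes were listed in both pairs, so each had a low p in both oxygen contrasts. For a gene listed in opposite directions, a difference between the effects was thus built in. The interaction p was adjusted over these genes only, and single libraries were not left out for it. Alkbh6 was near the floor, at 0.181 to 5.88 RPM.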

How the results depend on the processing

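The counts of genes called in ischemia DMSO against normoxia DMSO stayed within 1.5 times of 3689 higher and 3838 lower under TMM scaling (3756 and 3692), DESeq2 size factors (3770 and 3062), a minimum of 5 RPM (3164 and 3291), the DESeq2 Wald test (3303 and 3490), the authors' deposited table (3231 and 3482), an adjusted p under 0.01 (2830 and 3039) and a fit of all 8 libraries (3086 and 3371). A 2-fold minimum left 1298 higher and 1632 lower. Leaving out 1 library at a time gave 2530 to 3568 higher and 2756 to 3698 lower. The labels do not say whether replicate numbers pair the libraries. Deviations of same-numbered libraries had a correlation of 0.02 over 6627 genes, which cannot settle pairing with 2 libraries per group. The replicate block gave 3740 and 3889. The promoter share with an E-box was 4.56 percentage points greater for genes called higher than lower, and 3.01 points in the 100 bases before the start.

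Of the 186 genes printed with values, 4 lost their call with DESeq2 size factors (Bmpr1a, Calr, Kcnj11 and Pygb) and 8 with the DESeq2 Wald test. Without ischemia DMSO library 1 and library 2, 23 and 27 lost it, 30 genes in all: Actg1, Aldh18a1, Bmpr1a, Calr, Ctgf, Ddb2, Eef2, Epb4.1l1, Kcnj3, Kcnj11, Mrps18b, Mrps35, Msh3, Myh7, Nhp2, Npas2, Pygb, Rbm20, Rbm39, Rpl7a, Srpk1, Tet1, Tet2, Tet3, Tgfbr1, Tgfbr2, Wars, Wnt4, Wnt9a and Xbp1. Without normoxia DMSO library 1, 8 lost it (Actg1, Aldh18a1, Epb4.1l1, Kcnj11, Mrps18b, Msh3, Npas2 and Pygb), and Nhp2 reversed; its log2 fold change lay between -5.98 and 0.45 with 1 library left out. Without normoxia DMSO library 2, 4 did (Ddb2, Tet3, Tgfbr1 and Wnt9a). With 1 library left in a group, its spread is assumed to be that of the other group. Of 68 counts of list members, 20 and 23 moved by over 1.5 times without ischemia DMSO library 1 or 2, and 8 with DESeq2 size factors. The cause was not tested. Replicates of a group differed by more than counting error (chi-square per degree of freedom 6.75 in ischemia DMSO and 14.7 in normoxia DMSO).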
